A study of Mus musculus with 64 samples.

Results

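The 10 genes described here encode mouse serotonin receptors: Htr1a, Htr1b, Htr1d, Htr2a, Htr2c, Htr3a, Htr4, Htr5a, Htr6 and Htr7. They were chosen by name, not by a measured value, though with earlier results of these data known. They are 10 of the 32227 genes in the deposited table of counts. Levels are given as CPM, the count of a gene scaled to the size of its library. All 10 were over the count filter that left 17382 genes for testing. Htr1d passed it mainly through CAST/EiJ, where it was highest: of the 10 libraries above the filter's minimum of 0.451 CPM, 6 were CAST/EiJ. A difference in Htr1d may therefore have been favoured by the filter itself, although the 4 libraries of other strains equal the number that it needs. The counts over receptors and strains are thus also given without Htr1d.

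Serotonin reaches the hippocampus through fibres of the raphe nuclei and acts there on several receptor classes. The Htr1 and Htr5 receptors couple to inhibitory Gi and Go proteins, the Htr2 receptors couple to Gq and phospholipase C, and the Htr4, Htr6 and Htr7 receptors couple to Gs and raise cyclic AMP. Htr3a is the exception, since it is a subunit of an ion channel that serotonin opens. In the hippocampus these receptors act on pyramidal cells, granule cells, interneurons and incoming fibres, and they are targets of anxiolytic, antidepressant and psychedelic drugs.

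Bulk RNA sequencing covered the hippocampus of 8 inbred strains, with 4 female and 4 male libraries of each strain and 64 libraries in all. The strains were C57BL/6J, 129S1/SvImJ, NOD/ShiLtJ, A/J, NZO/HlLtJ, CAST/EiJ, PWK/PhJ and WSB/EiJ, the founders of the Collaborative Cross. In 6 of these names the labels have another sign for the slash. CAST/EiJ, PWK/PhJ and WSB/EiJ derive from wild mice of different subspecies, NOD/ShiLtJ is known for autoimmune diabetes and NZO/HlLtJ for obesity. No treatment or engineered allele is named in the labels, and age was not given in the sources used here. Each library held between 16607602 and 27759221 counts, with a median of 22176356.5. Spread is the SD over the 8 libraries of a strain unless stated.

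The libraries carried hippocampal markers throughout. Summed levels of 6 CA1 pyramidal markers were between 632 and 1301 CPM, and those of 7 dentate granule markers were between 361 and 614 CPM. The 4 markers of raphe serotonin neurons summed to between 5.19 and 13.2 CPM, mostly Slc18a2, while Fev was listed at 0 in 52 of 64 libraries and Slc6a4 in 25. Choroid plexus, which lies against the hippocampus and expresses Htr2c, varied between libraries, as its 12 markers summed to between 22.8 and 5005 CPM. Expression profiles of A/J male 2 and 129S1/SvImJ female 1 stood apart from the other libraries of their groups, and results that depend on them are given without them. The CAST/EiJ females carry a separate block of title numbers, so sex and number block cannot be told apart in that strain.

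Per kilobase of exon, Htr1a had the highest median level over the 64 libraries, at 10.9 CPM per kilobase. Htr2c followed at 5.49 and Htr3a at 4.85 CPM per kilobase. The next 5 members lay close together, between 2.44 for Htr1b and 3.60 for Htr7 CPM per kilobase, and Htr6 was lower at 1.98. Htr1d was far below the rest at 0.0739 CPM per kilobase, with 0 to 20 counts in a library.

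All 10 genes, and so all 9 without Htr1d, differed between strains in the F test over the 8 strain means (edgeR quasi-likelihood test, Benjamini-Hochberg adjusted p below 0.05), as did 89.2% of all genes tested. With a further minimum of 1 on the log2 scale for the range of strain means, 2 of 10 passed, Htr3a and Htr1d, or 1 of 9 without Htr1d, against 27.6% of all genes tested. Htr1a lay just under that minimum at 0.98 and Htr3a just over it at 1.10. The median range of the 10 genes was 0.64, or 0.60 without Htr1d, beside 0.55 for all genes tested. In bulk tissue, fewer cells of a type and less RNA per cell cannot be told apart, which applies to every difference given here.

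**Figure D1:**
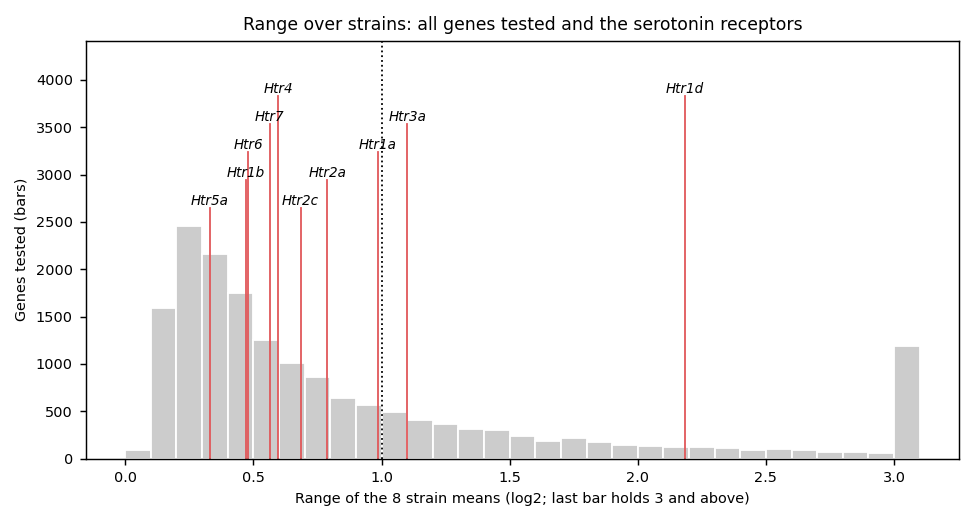
Grey bars count the 17382 genes tested by the range of their 8 strain means (log2 scale, last bar 3 and above), and red lines mark the 10 receptor genes, their heights carrying no value. The dotted line marks the minimum of 1, with Htr1a at 0.98 just left of it and Htr3a at 1.10 just right of it.

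Htr1a, which encodes the receptor that inhibits pyramidal and granule cells by opening potassium channels and also serves as the autoreceptor of raphe neurons, was highest in CAST/EiJ. Its lowest, median and highest levels were 61.9, 77.6 and 101 CPM in CAST/EiJ, and 31.7, 47.1 and 71.9 CPM in the 56 libraries of the other strains. Of the 8 CAST/EiJ libraries, 6 lay above every other library. CAST/EiJ averaged 79.6 ± 12.3 CPM and the other strains 48.3 ± 9.47 CPM (SD, n = 8 and 56), which is 0.74 ± 0.05 on the log2 scale (SE, edgeR adjusted p = 1.13e-18). Without the CAST/EiJ females the value was 0.79 (edgeR adjusted p = 1.05e-13). NZO/HlLtJ came second with 64.6 ± 4.65 CPM, 0.40 ± 0.05 above the other strains on the log2 scale (SE, edgeR adjusted p = 1.79e-08). All 8 NZO/HlLtJ libraries, between 58.6 and 71.9 CPM, lay above every library of the 6 strains other than CAST/EiJ.

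At the low end, C57BL/6J averaged 40.4 ± 5.28, NOD/ShiLtJ 40.7 ± 6.45 and WSB/EiJ 40.8 ± 2.57 CPM. Each fell below the mean of the other strains, by 0.38, 0.36 and 0.36 on the log2 scale, with edgeR adjusted p between 2.24e-07 and 7.18e-07. No neighbours among these 3 strains differed past the threshold. In the order of levels CAST/EiJ stood above NZO/HlLtJ (edgeR adjusted p = 0.000342), NZO/HlLtJ above 129S1/SvImJ (0.00195) and A/J above WSB/EiJ (0.0327), while 129S1/SvImJ, PWK/PhJ and A/J could not be separated step by step. CAST/EiJ against C57BL/6J was the widest pair, with no library in common range and a log2 fold of 0.98 (95% interval 0.84 to 1.13). Strain accounted for 82.2% of the variance of log2 CPM of Htr1a, and 12% of all genes tested had a larger share.

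Summed CA1 markers did not run in the order of Htr1a. Their summed level had a median of 1077 CPM in CAST/EiJ, the highest of the 8 strains, and of 639 CPM in NZO/HlLtJ, the lowest. WSB/EiJ, among the lowest in Htr1a, had 952 to 1051 CPM, with the second highest median, and C57BL/6J had a median of 776 CPM. Single CA1 markers differed in order. Wfs1 and Spink8 were highest in CAST/EiJ, with Wfs1 medians of 442 CPM there and 131 CPM in NZO/HlLtJ. Fibcd1, Pou3f1, Mpped1 and Man1a were each highest in a strain other than CAST/EiJ. The part of CA1 markers in the Htr1a result was not tested.

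The promoters of Htr1a and Htr2a are shown because these are the well-detected receptors in which 1 strain lay furthest above the others. Each window holds the 250 bases before the annotated start in RefSeq (build GRCm38.p6, C57BL/6J reference), which is an earlier build than that of the counts, and the alleles of the other strains were not read. Capitals mark matches to GGGCGG on either strand, where the reverse strand reads CCGCCC, the core of the box bound by Sp1. Htr1a lies at chr13:105443443-105443692 on the plus strand and Htr2a at chr14:74640624-74640873 on the plus strand.
Htr1a: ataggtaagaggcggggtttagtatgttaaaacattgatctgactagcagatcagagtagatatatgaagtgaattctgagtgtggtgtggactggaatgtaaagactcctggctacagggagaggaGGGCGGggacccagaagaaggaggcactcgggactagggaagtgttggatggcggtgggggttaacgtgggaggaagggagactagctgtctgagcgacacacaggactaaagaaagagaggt
Htr2a: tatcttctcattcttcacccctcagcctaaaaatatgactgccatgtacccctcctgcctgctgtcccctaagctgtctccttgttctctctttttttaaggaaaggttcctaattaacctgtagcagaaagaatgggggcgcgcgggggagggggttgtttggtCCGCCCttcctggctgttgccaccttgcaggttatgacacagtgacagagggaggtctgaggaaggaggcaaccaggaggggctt
Both windows hold a single match, and 32.7% of 32851 windows of the same length hold at least 1. GC content was 50.4% for Htr1a and 52.8% for Htr2a, beside a median of 52.4% over all windows. Neither window, nor those of Htr1b, Htr1d, Htr2c, Htr5a, Htr6 and Htr7, holds TATAAA (or TTTATA) or the cyclic AMP response element TGACGTCA, found in 12.4% and 1.55% of windows. The Htr7 window was the richest of these in GC, at 82% with 41 CpG. In all, 8 of the 10 members were matched in the table, without Htr3a and Htr4.

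Htr1b encodes a receptor on axon terminals that limits transmitter release. It was highest in PWK/PhJ (14 ± 1.38 CPM) and CAST/EiJ (13.8 ± 2.47 CPM), which exceeded the mean of the other strains by 0.28 ± 0.06 and 0.26 ± 0.06 on the log2 scale (SE, edgeR adjusted p = 9.75e-05 and 0.000263). NOD/ShiLtJ (10.1 ± 1.31 CPM), C57BL/6J (10.4 ± 0.741 CPM) and WSB/EiJ (10.5 ± 0.768 CPM) were lower than the other strains by 0.25, 0.20 and 0.19. Libraries ran in small steps between these ends, and no strain differed from its neighbour in the order of levels. PWK/PhJ libraries, at 12.2 to 16.1 CPM, still lay wholly above those of C57BL/6J, NOD/ShiLtJ and WSB/EiJ, of which the highest reached 12.2 CPM in NOD/ShiLtJ. An antisense gene, D430036J16Rik, overlaps Htr1b with a median of 29.5 counts, and reads of the pair cannot be separated if strand was not used in counting.

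Htr1d, a close relative of Htr1b on axon terminals and a target of triptan drugs, was barely detected. CAST/EiJ libraries held 9 to 20 counts (0.383 to 0.855 CPM), and 129S1/SvImJ libraries held 0 to 8 counts (0 to 0.344 CPM). The fitted fold of CAST/EiJ over the other strains was 2.67 (edgeR adjusted p = 4.14e-06), and the log2 fold of 129S1/SvImJ was -1.08 ± 0.37 (SE, edgeR adjusted p = 0.0185). The 129S1/SvImJ value rests on few counts: without the 2 libraries that stand apart it was -0.86 (edgeR adjusted p = 0.0624), and it was also lost when 129S1/SvImJ female 1, female 4 or male 2 was left out. Htr5a, the remaining Gi-coupled member, varied least of the 10, with a range of 0.33 and strain means between 14.1 and 17.7 CPM. NZO/HlLtJ was highest for Htr5a at 17.7 ± 1.52 CPM, 0.20 ± 0.05 over the other strains on the log2 scale, and WSB/EiJ was lowest at 14.1 ± 1.46 CPM, 0.17 ± 0.05 below them (SE, edgeR adjusted p = 0.000427 and 0.00303).

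**Figure D2:**
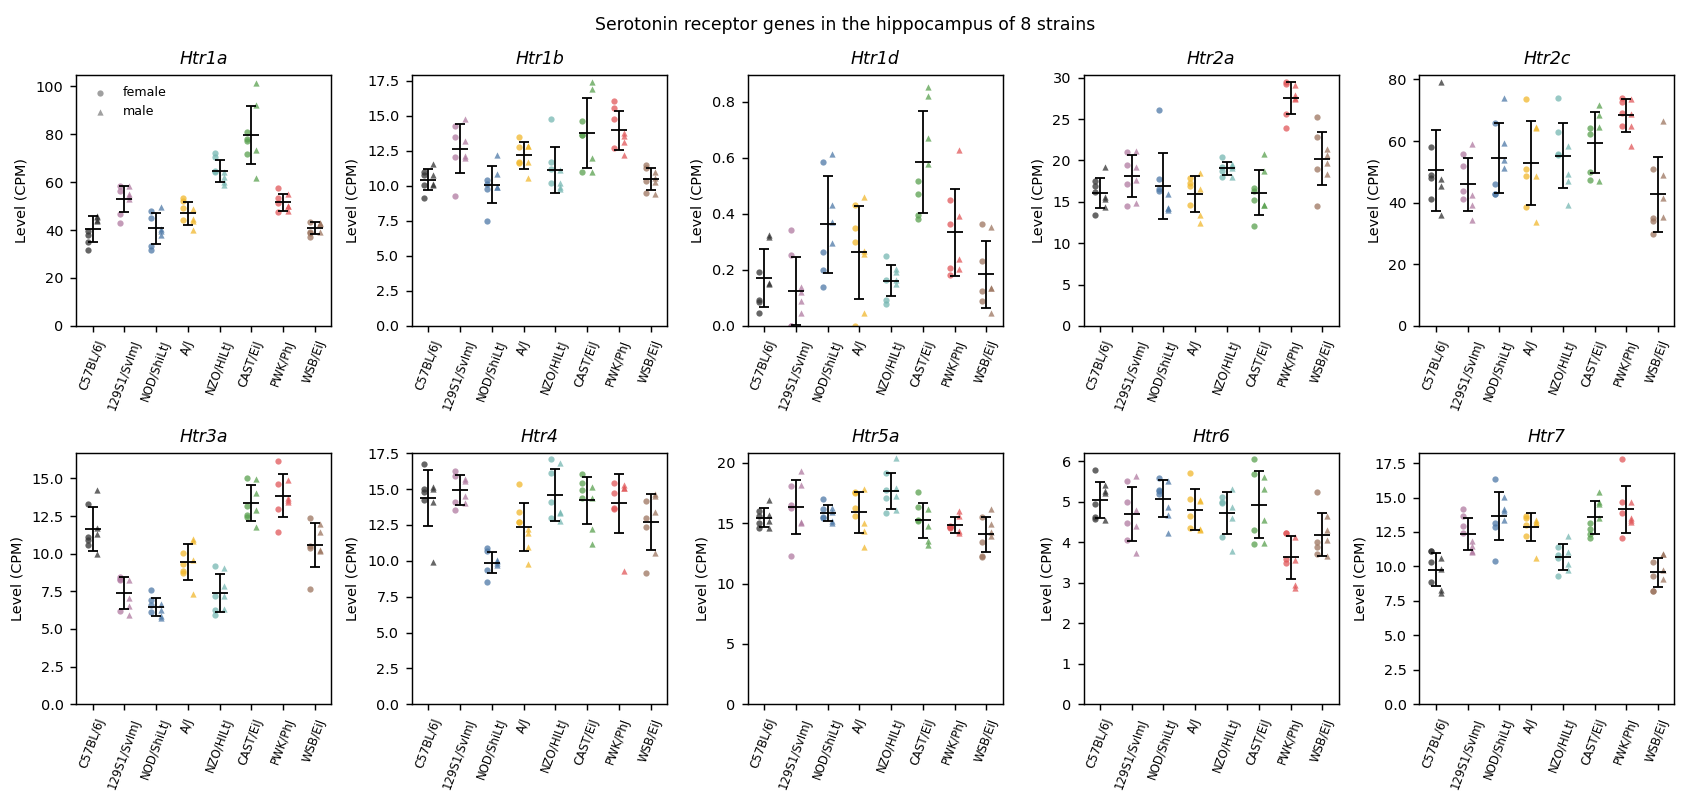
Each panel plots the level of 1 receptor gene (CPM, axis from 0) in every library by strain, circles for females and triangles for males, with bars for the mean and SD of 8 libraries. Htr1a is highest in CAST/EiJ at 79.6 ± 12.3 CPM, Htr2a in PWK/PhJ at 27.5 ± 1.92 CPM, and Htr4 is lowest in NOD/ShiLtJ at 9.87 ± 0.742 CPM.

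Htr2a encodes the Gq-coupled receptor through which psychedelic drugs act, and PWK/PhJ stood out in it. Its lowest, median and highest levels were 23.9, 27.7 and 29.5 CPM in PWK/PhJ, and 12, 17.4 and 26.1 CPM in the other 56 libraries. A total of 6 PWK/PhJ libraries lay above all the others, and the value of 26.1 CPM came from NOD/ShiLtJ female 1 alone. PWK/PhJ averaged 27.5 ± 1.92 CPM and the other strains 17.5 ± 2.93 CPM (SD, n = 8 and 56), a log2 fold of 0.66 ± 0.07 (SE, edgeR adjusted p = 2.13e-12). PWK/PhJ also exceeded its neighbour WSB/EiJ at 20.2 ± 3.20 CPM (edgeR adjusted p = 6.31e-05). The 7 strains below it formed a run in which no neighbours differed, down to A/J at 15.9 ± 2.19 CPM. Over all 28 pairs of strains, 14 differed in Htr2a (edgeR adjusted p below 0.05), more than the 7 that include PWK/PhJ.

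Htr2c, on the X chromosome, encodes a Gq-coupled receptor whose transcript is edited and which is abundant in the epithelium of the choroid plexus. PWK/PhJ had 58.5, 69.0 and 74.0 CPM as lowest, median and highest levels, and the other strains had 29.8, 49.1 and 79.1 CPM. PWK/PhJ libraries lay close together and high, and those of every other strain overlapped them. The log2 fold of PWK/PhJ over the other strains was 0.42 ± 0.11, and that of WSB/EiJ, with 42.8 ± 12.2 CPM, was -0.37 ± 0.12 (SE, edgeR adjusted p = 0.000849 and 0.00824). No neighbours in the order of levels differed, and the strain share of variance was 35.4%, beside a median of 51.1% over all genes tested.

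Within groups of strain and sex, Htr2c followed choroid plexus markers from library to library. Over 64 libraries, with group means removed, Pearson's r with the mean log2 CPM of 12 choroid plexus markers was 0.77 and Spearman's rho 0.76 (permutation p = 1e-05 for each, the smallest that 100000 resamples can give, adjusted p = 0.0003 over 30 relations). Without the 2 libraries farthest from the median score r was 0.74. Within each strain, with females and males pooled and no group means removed, r was positive in all 8 strains, between 0.62 and 0.92. Over all libraries, strain differences included, C57BL/6J male 2 had the highest Htr2c level, 79.1 CPM, and a summed choroid level of 3821 CPM. WSB/EiJ female 2 had the lowest Htr2c level, 29.8 CPM, and a summed choroid level of 144 CPM. In that group, WSB/EiJ female 3 had a lower summed choroid level, 77.8 CPM, but more Htr2c, 35.2 CPM.

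Between strains, PWK/PhJ was low in choroid plexus markers and high in Htr2c. Its choroid markers summed to 22.8 to 1908 CPM with a median of 107 CPM, and its highest library was below the highest of each other strain. Its mean Htr2c level was the highest of the 8. With the choroid score as a covariate the log2 fold of PWK/PhJ became 0.60 (edgeR adjusted p = 1.52e-10), against 0.42 without it, and the range over strains became 0.89, against 0.68 without it. Htr2c was also related to markers of thalamus and habenula within groups (r = 0.61, rho = 0.59, permutation p = 3e-05 and 2e-05, adjusted 0.00045 and 0.0003, r = 0.57 without the 2 farthest libraries). The 2 marker scores share the same libraries, and their separate parts were not tested. What part choroid plexus content has in the strain differences of Htr2c was not tested either.

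**Figure D3:**
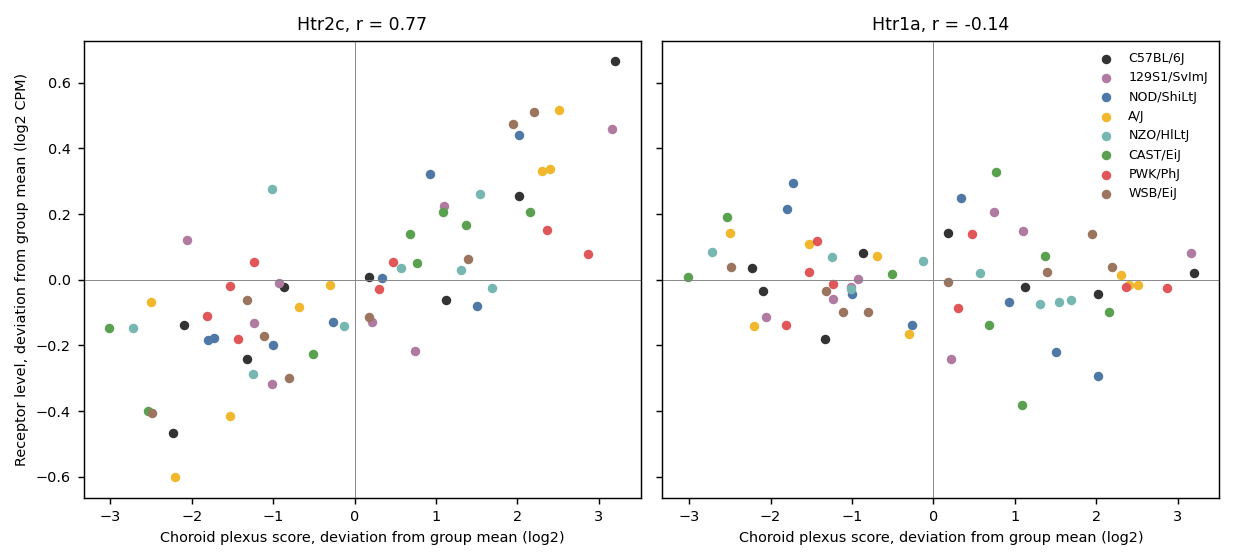
Each point is 1 library, with the deviation of its choroid plexus score from the mean of its group of strain and sex on the x axis (log2) and that of the receptor level on the y axis (log2 CPM). Htr2c rises with the score (r = 0.77) and Htr1a does not show that pattern (r = -0.14).

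Htr3a encodes the obligatory subunit of the serotonin-gated cation channel, found in interneurons that arise in the caudal ganglionic eminence. It had the widest strain range of the 9 well-detected members. PWK/PhJ (11.4, 13.7 and 16.2 CPM as lowest, median and highest) and CAST/EiJ (11.8, 13 and 15 CPM) were at the top, while NOD/ShiLtJ (5.72, 6.43 and 7.59 CPM) was at the bottom. PWK/PhJ and NOD/ShiLtJ libraries were fully separate, as were those of CAST/EiJ and NOD/ShiLtJ. Over the other strains, the log2 fold was 0.59 ± 0.07 in PWK/PhJ, 0.54 ± 0.07 in CAST/EiJ and -0.66 ± 0.07 in NOD/ShiLtJ (SE, edgeR adjusted p = 1.9e-11, 3.87e-10 and 8.16e-11).

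C57BL/6J, at 11.6 ± 1.44 CPM, was also above the other strains in Htr3a, by 0.30 ± 0.07 (SE, edgeR adjusted p = 0.000221). NZO/HlLtJ (7.38 ± 1.24 CPM) and 129S1/SvImJ (7.37 ± 1.05 CPM) were below them, by 0.44 and 0.45. In the order of levels, A/J at 9.44 ± 1.20 CPM above NZO/HlLtJ were the only neighbours that differed (edgeR adjusted p = 0.00252). An antisense gene, Gm32335, overlaps Htr3a with a median count of 0. PWK/PhJ over NOD/ShiLtJ, at 1.10 ± 0.09, and CAST/EiJ over NOD/ShiLtJ, at 1.05 ± 0.09, were the 2 pairs past a log2 fold of 1 (SE, edgeR adjusted p = 2.77e-15 and 1.27e-14). Strain held 83.9% of the variance of Htr3a, and 10.3% of all genes tested had a larger share.

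Summed interneuron markers did not run in the order of Htr3a, and their part in the Htr3a result was not tested. The 7 markers of caudal ganglionic eminence interneurons summed to 229 to 253 CPM in PWK/PhJ, 263 to 284 CPM in CAST/EiJ, 198 to 234 CPM in C57BL/6J and 229 to 271 CPM in NOD/ShiLtJ. Single markers did not share 1 order: by median, Cxcl14 was highest in CAST/EiJ and Adarb2 in NOD/ShiLtJ. No score of these 7 markers was run within groups. Within groups, Htr3a was not related to the score of 10 interneuron markers past the threshold (r = 0.19, rho = 0.15, permutation p = 0.207 and 0.309, adjusted 0.414 and 0.641, r = 0.21 without the 2 farthest libraries). It was lower where thalamus and habenula markers were higher (r = -0.48, rho = -0.53, permutation p = 0.00023 and 0.00012, adjusted 0.0023 and 0.0012, r = -0.48 without the 2 farthest libraries). Those 8 markers summed to 138 to 210.4 CPM in NOD/ShiLtJ and 125 to 197 CPM in PWK/PhJ, and Pou4f1, which defines the habenula, was listed at 0 in 30 of 64 libraries.

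Htr4, a Gs-coupled receptor that promotes excitability and learning, was lowest in NOD/ShiLtJ. NOD/ShiLtJ had 8.52, 9.90 and 10.9 CPM as lowest, median and highest levels, and the other strains had 9.16, 14.2 and 17.1 CPM. All 8 NOD/ShiLtJ libraries lay under the median of the others, although only 1 lay below all of them. The means were 9.87 ± 0.742 CPM in NOD/ShiLtJ and 13.9 ± 1.89 CPM in the other strains (SD, n = 8 and 56), a log2 fold of -0.49 ± 0.07 (SE, edgeR adjusted p = 5.89e-08). NOD/ShiLtJ was also lower than its neighbour A/J, at 12.4 ± 1.66 CPM (edgeR adjusted p = 0.00477), and the other 7 strains could not be separated step by step. Over all 28 pairs of strains, 11 differed in Htr4 (edgeR adjusted p below 0.05), more than the 7 that include NOD/ShiLtJ. Dentate granule markers summed to 374 to 432 CPM in NOD/ShiLtJ and 361 to 614 CPM over all libraries, and their part in the Htr4 result was not tested.

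Htr6, a Gs-coupled receptor of the neuronal primary cilium, was lowest in PWK/PhJ. PWK/PhJ had 2.86, 3.57 and 4.22 CPM as lowest, median and highest levels, and the other strains had 3.67, 4.82 and 6.04 CPM. A total of 5 PWK/PhJ libraries lay below every other library. The log2 fold of PWK/PhJ was -0.39 ± 0.08 (SE, edgeR adjusted p = 1.28e-05), although its neighbour WSB/EiJ, at 4.18 ± 0.531 CPM, was not separable from it (edgeR adjusted p = 0.0725).

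Htr7, the third Gs-coupled receptor, which is known for roles in circadian timing and hippocampal plasticity, divided the strains. PWK/PhJ (14.1 ± 1.68 CPM), NOD/ShiLtJ (13.7 ± 1.75 CPM) and CAST/EiJ (13.6 ± 1.20 CPM) were above the mean of the other strains by 0.28, 0.22 and 0.21 on the log2 scale. WSB/EiJ (9.58 ± 1.06 CPM), C57BL/6J (9.78 ± 1.22 CPM) and NZO/HlLtJ (10.7 ± 0.939 CPM) were below it, by 0.36, 0.33 and 0.18. The edgeR adjusted p of these 6 comparisons was between 2.43e-07 and 0.00546. In the order of levels, 129S1/SvImJ at 12.3 ± 1.16 CPM stood above NZO/HlLtJ (edgeR adjusted p = 0.0235), and no other neighbours differed. Within groups Htr7 was related to the interneuron score (r = 0.44, rho = 0.38, permutation p = 0.00131 and 0.00426, adjusted 0.00983 and 0.0319, r = 0.43 without the 2 farthest libraries). With the median of the markers as the score, r was 0.25 and the call was lost (adjusted permutation p = 0.172). It was related likewise to the thalamus and habenula score (r = 0.43, rho = 0.37, permutation p = 0.00258 and 0.00852, adjusted 0.0155 and 0.0426, r = 0.42 without the 2 farthest libraries, adjusted permutation p then 0.0597). Of the 30 relations of receptors with marker scores 6 passed, and the share of all genes that follow these scores was not computed. The last of the 6 was Htr1d with thalamus and habenula (r = 0.47, rho = 0.41, permutation p = 0.00604 and 0.00538, adjusted 0.0302 and 0.0323, r = 0.34 without the 2 farthest libraries, adjusted permutation p then 0.225).

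Across the 80 comparisons of a receptor in a strain with the mean of the other 7 strains, 15 were higher and 20 were lower at an edgeR adjusted p below 0.05. These are 18.8% and 25%, beside 22.5% and 19.8% for all genes tested. Without Htr1d they were 14 and 19 of 72, or 19.4% and 26.4%. A log2 fold of at least 1 was reached only by Htr1d, higher in CAST/EiJ and lower in 129S1/SvImJ, or 1.25% in each direction beside 2.79% and 2.49% of all tests. PWK/PhJ and CAST/EiJ each had 5 receptors higher and 1 lower, Htr1d being 1 of the 5 in CAST/EiJ, while WSB/EiJ had 5 lower and 0 higher. C57BL/6J and NOD/ShiLtJ each had 1 higher and 4 lower, NZO/HlLtJ 2 and 2, 129S1/SvImJ 1 and 2, and A/J 0 and 1. Over all genes, the share called higher and lower was 28.9% and 28.8% in PWK/PhJ, 28.3% and 28.5% in CAST/EiJ, and 22.3% and 20% in WSB/EiJ. It was 20.4% and 17.6% in C57BL/6J, 21.4% and 18.2% in NOD/ShiLtJ, and 21.8% and 16.2% in NZO/HlLtJ. The remaining strains had 17.6% and 14.7% (129S1/SvImJ) and 19.1% and 14.7% (A/J). With 10 genes a strain, these shares are coarse. No receptor had a strain whose 8 libraries all lay above or below the 56 others, beside 9.62% of all genes that had one.

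**Figure D4:**
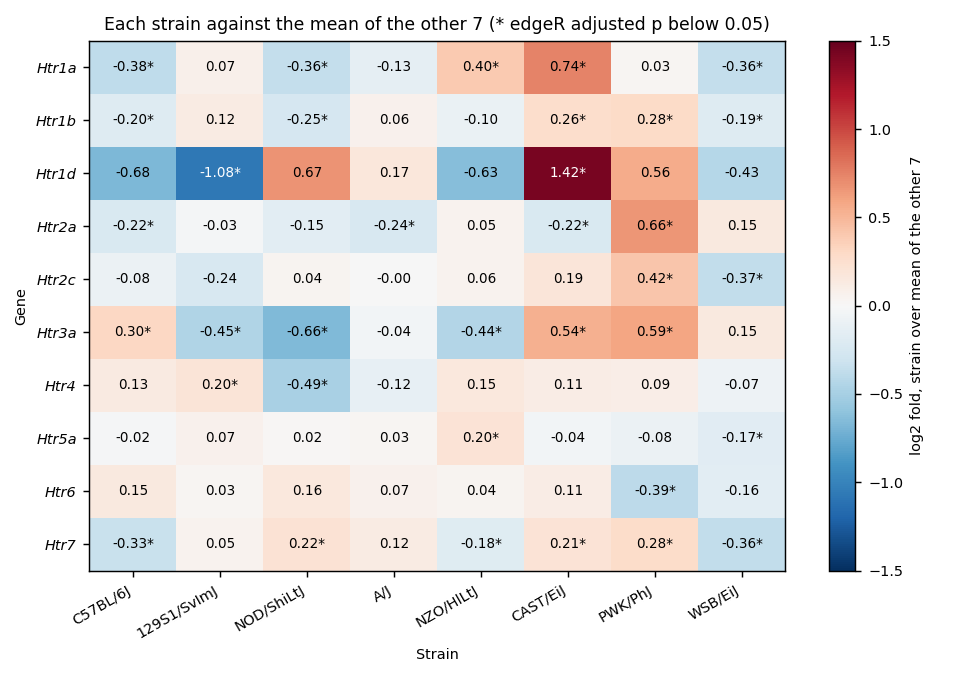
Cells give the log2 fold change of each receptor in each strain over the mean of the other 7 strains, and stars mark an edgeR adjusted p below 0.05. The deepest cells outside Htr1d are Htr1a in CAST/EiJ (0.74), Htr2a in PWK/PhJ (0.66) and Htr3a in NOD/ShiLtJ (-0.66).

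Between pairs of strains, 133 of 280 combinations of receptor and pair differed (edgeR adjusted p below 0.05), or 47.5%, beside 40.8% of all such tests over all genes. Without Htr1d it was 122 of 252, or 48.4%. A log2 fold of at least 1 was reached in 13 (4.64%, beside 7.87%), of which 11 were Htr1d and 2 Htr3a. The 8 libraries of a strain were fully separate from the 8 of another in 48 of the 280 combinations, or 17.1%, beside 15% over all genes. Without Htr1d it was 44 of 252, or 17.5%. Htr1a gave 14 of these and Htr3a 12, whereas Htr2c and Htr5a gave 0.

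The order of strains differed between receptors. Over the 8 strain means, r between Htr2a and Htr6 was -0.95, with PWK/PhJ highest in Htr2a and lowest in Htr6, but r was 0.07 over the 64 libraries with group means removed. Htr1a and Htr1b went together on both measures, with r = 0.66 over strain means and 0.61 within groups. These values describe the same libraries and share their depth and scaling, and they carry no test.

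No difference between females and males passed the threshold. Across the 8 strains, 0 of 10 passed the edgeR test and 0 of 10 had an unadjusted p below 0.05, and DESeq2 also gave 0 and 0, while 0.167% of all genes were called and 5.3% had an unadjusted p below 0.05. The largest bound of the 95% intervals was 0.19 on the log2 scale over the 9 genes other than Htr1d. Htr4 came nearest, with 13.8 CPM in females and 13 CPM in males, a log2 fold of 0.08 (95% interval -0.00435 to 0.17, unadjusted p = 0.0612 in the edgeR fit across all genes, adjusted 0.97). X-linked Htr2c had 53.2 CPM in females and 54.3 CPM in males, a log2 fold of -0.04 (95% interval -0.19 to 0.11).

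**Figure D5:**
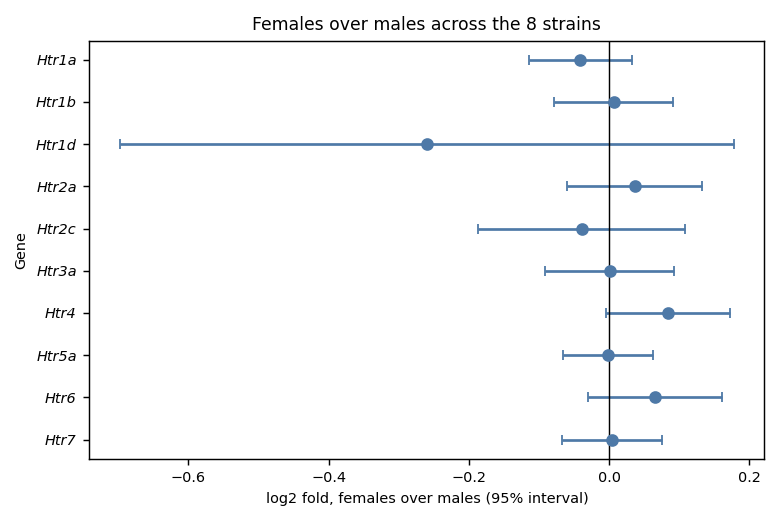
Points give the log2 fold change of females over males across the 8 strains for each receptor, with bars for the 95% interval. All 10 intervals include 0, and that of Htr1d, with 0 to 20 counts in a library, is the widest.

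Within single strains, 0 of 80 comparisons of females with males passed the edgeR test, beside 0.15% of all such tests, and 5 had an unadjusted p below 0.05, beside 7.8%. In C57BL/6J, Htr1a averaged 36.0 ± 3.54 CPM in females and 44.8 ± 1.03 CPM in males (SD, n = 4 each), and the libraries of the sexes did not overlap, yet the edgeR adjusted p was 1. In NOD/ShiLtJ, Htr2a averaged 19.2 ± 4.66 CPM in females, raised by 1 library of 26.1 CPM, and 14.6 ± 0.861 CPM in males (edgeR adjusted p = 0.172). The interaction of strain and sex was called for 0 of 10 genes in edgeR and in DESeq2, beside 0.046% of all genes. An unadjusted p below 0.05 for it was found in Htr1a and Htr7 by edgeR, in 2 genes by DESeq2, and in 10.7% of all genes by edgeR.

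Of the 4 other serotonin receptor genes in the table, 2 were tested. Both differed between strains (100%, beside 89.2% of all genes tested), and 1 also had a range of at least 1 (50%, beside 27.6%). Htr5b, which has lost its function in humans but is intact in mice, was that gene, with a range of 1.11, at 9.92 ± 1.45 CPM in CAST/EiJ and 4.58 ± 0.494 CPM in NOD/ShiLtJ (edgeR adjusted p = 6.24e-16). Htr1f, another Gi-coupled receptor, reached 2.93 ± 0.605 CPM in PWK/PhJ, beside 1.77 ± 0.486 CPM in the other strains, a log2 fold of 0.74 ± 0.14 (SE, edgeR adjusted p = 4.48e-06). Htr2b and Htr3b were under the count filter, with at most 6 and 3 counts in a library. Htr3b encodes a partner subunit of Htr3a in the channel.

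Genes for making and clearing serotonin had a median range of 0.86, beside 0.55 for all genes tested. Of 16 listed genes for synthesis, transport and breakdown, 13 were tested, 12 differed between strains (92.3%, beside 89.2% of all genes) and 3 also had a range of at least 1 (23.1%, beside 27.6%). These were Tph1, Slc22a3 and Gch1, all low in level: Slc22a3, an organic cation transporter, had 1.39 ± 0.389 CPM in PWK/PhJ and 0.335 ± 0.174 CPM in WSB/EiJ. Tph2, the rate-limiting enzyme of serotonin neurons, had 1.64 ± 0.349 CPM in PWK/PhJ and 0.851 ± 0.192 CPM in WSB/EiJ, a range of 0.92. Maob, which degrades amines, had 24.6 ± 2.06 CPM in C57BL/6J and 13.5 ± 1.34 CPM in PWK/PhJ. Maoa, its relative with a preference for serotonin, had a range of 0.37.

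Downstream of the receptors, all 9 genes of G protein alpha subunits differed between strains at small ranges (median 0.20), and 0 had a range of at least 1. Beside them, 89.2% of all genes tested differed and 27.6% also had that range. Of 21 effector genes, 20 differed (95.2%) and 3 had a range of at least 1 (14.3%), namely Plcb2, a phospholipase C, Kcnj5, a potassium channel subunit, and Rapgef3, a cyclic AMP sensor. Kcnj5 was low in level, with 0.733 ± 0.370 CPM in CAST/EiJ and 0.279 ± 0.266 CPM in PWK/PhJ. Rapgef3 had 44.3 ± 5.28 CPM in CAST/EiJ, beside 22.1 ± 1.91 CPM in NOD/ShiLtJ. It was also the 1 effector gene called between females and males (edgeR adjusted p = 0.0415), beside 0.167% of all genes. Of 19 partners and regulators, 16 differed (84.2%) and 2 had a range of at least 1 (10.5%). S100a10, which binds the Htr1b and Htr4 receptors, was 11.8 ± 1.19 CPM in NZO/HlLtJ and 3.66 ± 0.355 CPM in CAST/EiJ, and Adarb2, a brain relative of the enzymes that edit Htr2c RNA, was 62.1 ± 7.17 CPM in NOD/ShiLtJ and 27.7 ± 3.07 CPM in C57BL/6J. Adarb2 is also 1 of the 7 markers of caudal ganglionic eminence interneurons.

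The genes most like each receptor over the 64 libraries were found on other chromosomes, apart from Castor2, which like Htr5a is on chromosome 5. Htr3a was most like Pitpna (r = 0.81) and Mcm5 (r = 0.80), Htr2a most like Shisa7 and Jak1 (r = 0.80 for each), and Htr2c most like Tbc1d9 (r = 0.79) and Col4a4 (r = 0.77). Htr4 was most like Arid4a (r = 0.79), Htr1a most like Slc5a3 and Gstm7 (r = 0.78 for each), and Htr7 most like Lyplal1 (r = 0.78). Htr5a with Akap5 (r = 0.75) and Htr1b with Crebl2 (r = 0.74) followed, and Htr6 with Fam102a (r = 0.66) and Htr1d with Olfr1459 (r = 0.64) were the weakest. These r of log2 CPM pool strain differences with differences between libraries, share depth and scaling, and are given without a test.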

How the data were processed

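RNA of hippocampus was purified with TRIzol Plus and DNase treatment and made into TruSeq libraries, per the labels' protocols. The authors deposited whole-number read counts per gene for 64 libraries, on GRCm39 per the submitters' processing notes, with Ensembl release 105 in the table's name. Not given in the sources used here are the aligner, the counter, the use of strand, and whether all strains were aligned to the C57BL/6J reference. Bases that differ from that reference can lower counts, most in the wild-derived strains, and this was not tested.

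Columns were matched to samples by name, 50 exactly and 14 where the title has 1 digit more. Gene symbols and exon lengths were matched by Ensembl identifier to a GENCODE annotation of an earlier build (GRCm38), which left 81 identifiers (0.0382% of counts) without a symbol. Replicate numbers follow accession order. The labels do not say that libraries came from separate animals, so p-values rest on the spread between these samples, which may be technical. CAST/EiJ females have title numbers 639 to 643, and all other libraries 311 to 462.

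Counts were fitted with edgeR 4.0.16 in R 4.3.3: TMM scaling, filterByExpr (minimum count 10, minimum total 15), 16 means of strain and sex, a robust quasi-likelihood F test with 48 residual degrees of freedom, and Benjamini-Hochberg adjustment over 17382 genes. Strains were compared over 8 means, each against the mean of the other 7, and in 28 pairs. Each strain enters the others' means, so these comparisons are not independent. Calls needed an adjusted p below 0.05, and where stated a log2 value of at least 1. The SE of a log2 fold is its absolute value over the square root of F. Depth limits precision most for Htr1d. Relations with marker scores used two-sided permutation within groups (100000 resamples).

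Alternatives were DESeq2 1.42.0, its size factors in edgeR, other count filters and log2 minimums, a choroid plexus covariate, an additive model, and fits without the CAST/EiJ females, without the libraries that stand apart (by median correlation with their group), or without each library in turn. The last used 11 dispersion grid points in place of 21. The fits were tested on simulated data. The members, gene lists and markers were chosen with earlier results of these data known. All 10 members and the other receptors were named. Also named were up to 4 of the called genes of widest range in each other list, plus Tph2, Slc6a4, Maoa and Maob. Of the 2 genes most like each member by Pearson's r, at least the first was named.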

Additional observations from a re-analysis of the deposited data

Results flagged for a closer look

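In 7 of the 80 groups of 8 libraries, 1 library lay far from the other 7 of its strain. Chance flags about 1 in 20 groups. Htr1b was 14.8 CPM in NZO/HlLtJ female 3, and 9.79 to 11.7 CPM in the other 7. Htr2a was 26.1 CPM in NOD/ShiLtJ female 1, and 14 to 17.8 CPM in the other 7. Htr3a was 7.63 CPM in WSB/EiJ female 2, which also had the lowest Htr2c level of all libraries, and 10.2 to 12.4 CPM in the other 7.

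Htr4 was flagged in 2 male libraries, with 9.92 CPM in C57BL/6J male 4 (14.1 to 16.7 CPM in the other 7) and 9.26 CPM in PWK/PhJ male 4 (13.6 to 15.5 CPM in the other 7). Both lie in the range of NOD/ShiLtJ, the strain lowest in Htr4. Htr7 was 10.6 CPM in A/J male 3 (12.2 to 13.6 CPM in the other 7) and 17.8 CPM in PWK/PhJ female 4 (12.1 to 14.7 CPM in the other 7).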

How the results depend on the processing

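No called value changed sign under any alternative run. Differences of females over males near 0 did when single libraries were left out: Htr1b was -0.01 to 0.02, Htr3a -0.02 to 0.02, Htr5a -0.01 to 0.01 and Htr7 -0.01 to 0.02. Htr5a was also 0.00346 once A/J male 2 and 129S1/SvImJ female 1 were left out, and 8.99e-05 at a mean count of 50 or more, and Htr3a -0.00196 in the additive model. With a mean count of at least 50, Htr1d was not tested: 1 receptor passed the strain test with a range of at least 1, 0 strain combinations were higher, 0 were lower, and 2 pair combinations passed. With a log2 minimum of 0.5 these counts were 7, 5, 2 and 51, beside 50.5%, 7.05%, 5.81% and 16.5% of all genes or tests, and with a minimum of 2 they were 1, 0, 0 and 1, beside 12.1%, 0.772%, 0.772% and 2.98%. Without the 2 libraries that stand apart, 0 combinations were lower, as Htr1d in 129S1/SvImJ became -0.86. Leaving out each library in turn gave 0 to 1 lower combinations (0 without 129S1/SvImJ female 1, female 4 or male 2), and 2 to 3 receptors in the strain test. The third was Htr1a, in 8 of the 64 fits: without C57BL/6J female 2 or 4, NOD/ShiLtJ female 3, female 4 or male 4, or CAST/EiJ female 4, male 1 or male 3. Over all 64 fits its range was 0.93 to 1.04, and it was 1.04 without the CAST/EiJ females. Pairs of strains were not recomputed with single libraries left out. Of the relations with marker scores, 4 of 30 passed without the 2 farthest libraries (Htr7 and Htr1d with thalamus and habenula did not), and 5 with the median of the markers (Htr7 with interneurons did not). The largest median log2 fold of all genes in a strain was 0.00985 with TMM and 0.00815 with DESeq2 size factors. No paired analysis was possible because replicate numbers only follow accession order. Depth leaves Htr1d at 0 to 20 counts in a library, and intervals for the sexes reach 0.19 for the other 9 genes.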
